A study of Mus musculus with 10 samples.

Results

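The leptin, adiponectin and resistin axis was followed through 10 genes: the hormone genes Lep, Adipoq and Retn, the leptin receptor gene Lepr, the adiponectin receptor genes Adipor1 and Adipor2, the leptin signalling genes Stat3 and Socs3, and the receptor-trafficking genes Leprot and Leprotl1. They were chosen by symbol from the 55421 gene rows of the series, all 10 were found, and all 10 were among the 18509 genes that passed the filter on low counts. The ulcers had been made by surgical resection of skin in db/db mice, and tissue was taken after 7 days of administration. In the ointment group (5 libraries) the ulcers were given saline with Fu Huang ointment, and in the saline group (5 libraries) saline alone. Both groups carried the db allele of Lepr, so each value below comes from animals with a defective leptin receptor. The labels state neither age nor sex, nor whether the libraries are of different animals, so p-values cover only the spread among these libraries, part of which may be technical.

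Leptin is a hormone released by fat cells that signals through the long form of its receptor, JAK2 and STAT3, and STAT3 in turn switches on Socs3, whose product shuts the receptor down. The db mutation alters splicing of the Lepr transcript so that the long, signalling form is lost, which leaves mice obese, diabetic and slow to heal. Gene counts do not separate the receptor's isoforms. Adiponectin, which circulates at lower levels in obesity, acts through the membrane receptors encoded by Adipor1 and Adipor2. In mice resistin is made by fat cells.

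The promoters of 4 members are shown because their genes carried the main differences below (Lep, Lepr, Adipoq) or, for Socs3, are a known target of STAT3. Each run is the 250 bases before the RefSeq start on GRCm38.p6, read 5′ to 3′ on the gene's own strand, and RefSeq held such a sequence for 9 of the 10 members. Capitals mark matches on either strand to TATAA, to the C/EBP palindrome TTGCGCAA, to the STAT palindrome TTCNNNGAA and to CCAAT.
Lep (chr6:29059971-29060220, plus strand): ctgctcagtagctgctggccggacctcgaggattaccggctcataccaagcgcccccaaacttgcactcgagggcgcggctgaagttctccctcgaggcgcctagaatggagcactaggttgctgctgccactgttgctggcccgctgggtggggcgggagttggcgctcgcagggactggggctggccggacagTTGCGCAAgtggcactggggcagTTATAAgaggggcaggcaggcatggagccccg
Lepr (chr4:101717157-101717406, plus strand, the first of a pair of annotated starts): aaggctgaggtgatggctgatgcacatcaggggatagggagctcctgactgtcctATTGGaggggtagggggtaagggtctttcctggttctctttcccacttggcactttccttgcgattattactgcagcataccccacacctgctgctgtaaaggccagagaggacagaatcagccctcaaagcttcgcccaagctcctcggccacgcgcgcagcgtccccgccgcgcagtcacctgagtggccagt
Adipoq (chr16:23146286-23146535, plus strand): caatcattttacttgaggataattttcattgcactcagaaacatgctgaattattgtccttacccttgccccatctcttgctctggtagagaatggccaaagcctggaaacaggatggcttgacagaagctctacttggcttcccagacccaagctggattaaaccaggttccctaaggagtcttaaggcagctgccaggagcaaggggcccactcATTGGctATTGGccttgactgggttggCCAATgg
Socs3 (chr11:117969367-117969616, minus strand): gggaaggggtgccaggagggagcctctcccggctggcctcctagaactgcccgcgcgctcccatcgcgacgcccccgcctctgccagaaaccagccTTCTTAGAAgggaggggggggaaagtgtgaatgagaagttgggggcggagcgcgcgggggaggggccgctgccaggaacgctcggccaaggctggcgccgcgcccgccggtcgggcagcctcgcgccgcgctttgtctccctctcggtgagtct
The Lep window held TTGCGCAA, which starts 55 bases before the start site, and a TATAA run that overlaps its own reverse match and is printed as TTATAA. The C/EBP palindrome was found in 0.164% of 32851 promoter windows of this length and TATAA in 22.8%. The Adipoq window held 3 CCAAT matches within 34 bases of the start (33.8% of windows held at least 1), and Lepr held 1. The Socs3 window held TTCTTAGAA, which starts 154 bases before the start site, and 7.02% of windows held the STAT palindrome. The Socs3 window also overlaps an exon of a non-coding Socs3 transcript in GENCODE M21. These matches are letters in a window and do not show that a factor was bound.

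Library totals were 47807353 to 62896034 estimated counts with ointment and 58145331 to 62664018 with saline. Levels below are CPM, the estimated counts scaled to library size after TMM normalization. Krt14, the basal keratinocyte keratin gene, was 8560 to 15208 CPM with ointment and 8737 to 15858 CPM with saline, so skin epithelium was in every library. Some genes were listed at 0 in a library and high elsewhere: Junb, an AP-1 subunit gene, was at 0 in ointment 3 and 104 to 669 CPM in the other libraries. No member was at 0 in any library. No marker passed the test among 11 of keratinocytes, 9 of fibroblasts, 9 of skeletal muscle, 6 of preadipocytes and 7 of T and B cells.

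Lep rose and Lepr fell with ointment, and the other 8 members did not pass the test. Of the 10 members, 1 was called higher and 1 lower at an adjusted p under 0.05 (edgeR quasi-likelihood test, Benjamini-Hochberg over all genes). Over all genes tested, 0.692% were called higher, 0.983% lower and 1.67% in either direction. With DESeq2, which called 9.3% of all genes (4.83% higher, 4.47% lower), 4 members were called: Lep and Socs3 higher, Lepr and Adipoq lower. At an unadjusted p under 0.05, 4 members passed in edgeR, against 17.1% of all genes. The levels of all members by library show that the ointment and saline groups were apart without overlap in 1 of the 10, Lepr, and 6.54% of all tested genes had groups that do not overlap.

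**Figure D1:**
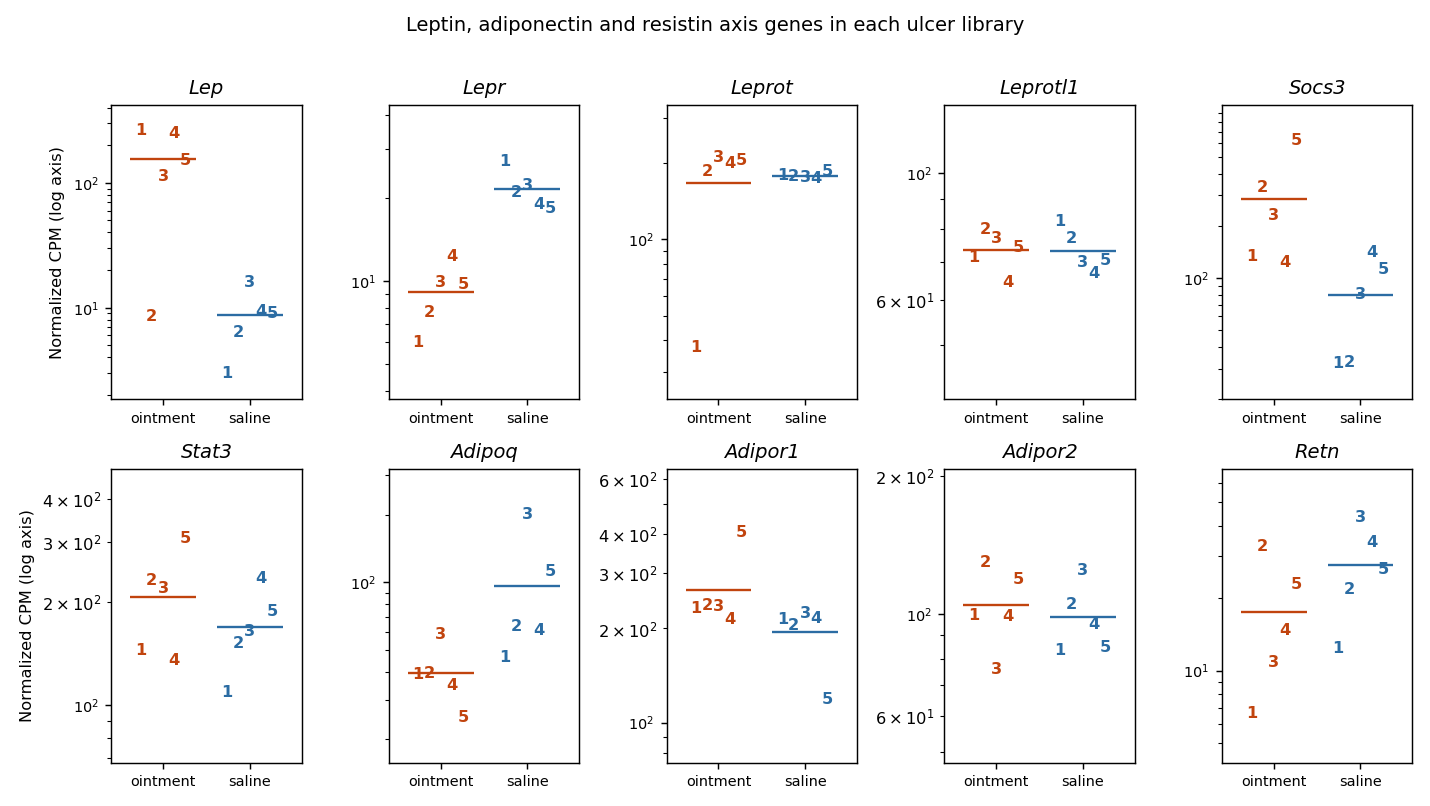
Normalized CPM (log axis, scaled per panel) of each member, with ointment libraries in orange on the left and saline libraries in blue on the right; digits are replicate numbers and lines are group means. Lep is above 111 CPM in 4 ointment libraries and at 8.45 CPM in ointment 2, and Leprot is at 37.6 CPM in ointment 1 alone.

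Lep, on chromosome 6 (29060220 to 29073877, plus strand), encodes leptin. It was 261, 8.45, 112, 248 and 149.5 CPM in ointment libraries 1 to 5, against 2.96, 6.38, 15.9, 9.35 and 8.99 CPM in saline libraries 1 to 5. Thus 4 ointment ulcers lay far above every saline ulcer, and ointment 2 lay within the saline range. The mean was 156 ± 104 CPM with ointment and 8.71 ± 4.74 CPM with saline (SD, n = 5 each). The log2 fold change was 4.16 (SE 0.80, 95% interval 2.37 to 5.95), a 17.9-fold difference, with adjusted p = 0.0347 by edgeR. In bulk tissue, fewer cells of a type and less RNA per cell cannot be told apart, and the same holds for more.

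Lep was called in 2 of the 10 fits that left out 1 library each, those without ointment 2 or ointment 4. It was not called without ointment 1 (adjusted p = 0.0753 by edgeR), ointment 3 (0.0741) or ointment 5 (0.0799). Nor was it called without saline 1 (0.0824), saline 2 (0.0824), saline 3 (0.0663), saline 4 (0.0871) or saline 5 (0.0728). The estimate stayed between 3.89 and 4.48 on the log2 scale in these fits, and without ointment 2 the adjusted p was 0.00743.

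Lepr, on chromosome 4 (101717404 to 101815352, plus strand), encodes the receptor that carries the db mutation. It was 5.97, 7.72, 9.89, 12.2 and 9.75 CPM in ointment libraries 1 to 5, against 27.1, 21.0, 22.1, 19.0 and 18.3 CPM in saline libraries 1 to 5. Every ointment ulcer lay below every saline ulcer. The mean was 9.11 ± 2.38 CPM with ointment and 21.5 ± 3.47 CPM with saline (SD, n = 5 each). Lepr fell by 1.24 on the log2 scale (SE 0.20, 95% interval -1.69 to -0.79), a 2.36-fold decrease, with adjusted p = 0.0199 by edgeR. Without ointment 3 or ointment 5 the adjusted p was 0.0544 and 0.0518, with log2 fold changes of -1.27 and -1.26.

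Other skin compartments were measured by their markers. Of 9 hair follicle markers 6 fell, among them the inner root sheath keratin gene Krt71 (log2 fold change -8.46) and the transcription factor gene Lef1 (-1.97), and their summed level was 13.2 to 40.0 CPM with ointment and 36.5 to 681 CPM with saline. Of 9 sebaceous gland markers 1, Krt79, a keratin of the gland's duct, fell (by edgeR, adjusted p = 0.0341 at a log2 fold change of -1.52) and 3 had positive values, and the sum was 616 to 1213 CPM with ointment and 899 to 1879 CPM with saline. None of 8 endothelial markers passed the test (8 had negative values), with sums of 398 to 635 CPM with ointment and 603 to 870.4 CPM with saline. Of these, Pecam1 had no overlap, at 175 to 205 CPM with ointment and 238 to 346 CPM with saline (adjusted p = 0.0646 by edgeR). None of 11 keratinocyte markers passed either (10 had negative values), with sums of 16615 to 29708 CPM with ointment and 21593 to 31058 CPM with saline. Krt1, a keratin gene of differentiating epidermis, was at -2.03 on the log2 scale with no overlap (adjusted p = 0.0564 by edgeR), and so was Dsp, the desmoplakin gene, at -0.89 (0.124). The hair follicle, sebaceous, endothelial and keratinocyte sums all overlapped between the groups, the hair follicle sums at ointment 5 (40.0 CPM) and saline 5 (36.5 CPM). Tchh, the trichohyalin gene, was 35.8 CPM in ointment 5 and 15.6 CPM in saline 5. It was the only hair follicle marker whose own groups overlapped (8.42 to 35.8 CPM with ointment, 3.72 to 147 CPM with saline). All 9 hair follicle markers had negative fold changes. Among these lists the markers listed at 0 in a library were 3 of the hair follicle and 1 of the sebaceous gland. Their part in the Lepr difference was not tested.

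Leprot lies 58.0 kb upstream of Lepr on the same strand (chromosome 4, 101647718 to 101659364), and its product limits the amount of leptin receptor at the cell surface. It was 37.6, 184, 210.0, 199 and 204 CPM in ointment libraries 1 to 5, against 178, 176, 174, 173 and 185 CPM in saline libraries 1 to 5. Ointment 1 stood 4.97-fold below the mean of the other 9 libraries, which were 187 ± 13.7 CPM (SD). Among all tested genes, 53 had 1 library at least 4-fold below 9 others that lay within 0.5 of each other on the log2 scale, and none had 1 library that far above. The cause of the low value was not tested.

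The log2 fold change of Leprot was -0.09 (SE 0.37, adjusted p = 0.944 by edgeR), and it was 0.17 without ointment 1 (adjusted p = 0.379). Leprotl1, the related gene on chromosome 8, was the steadiest member. It ran from 64.4 to 79.9 CPM with ointment and from 66.7 to 82.2 CPM with saline, with a log2 fold change of 0.00094 and a 95% interval of -0.21 to 0.22 (adjusted p = 0.999 by edgeR).

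**Figure D2:**
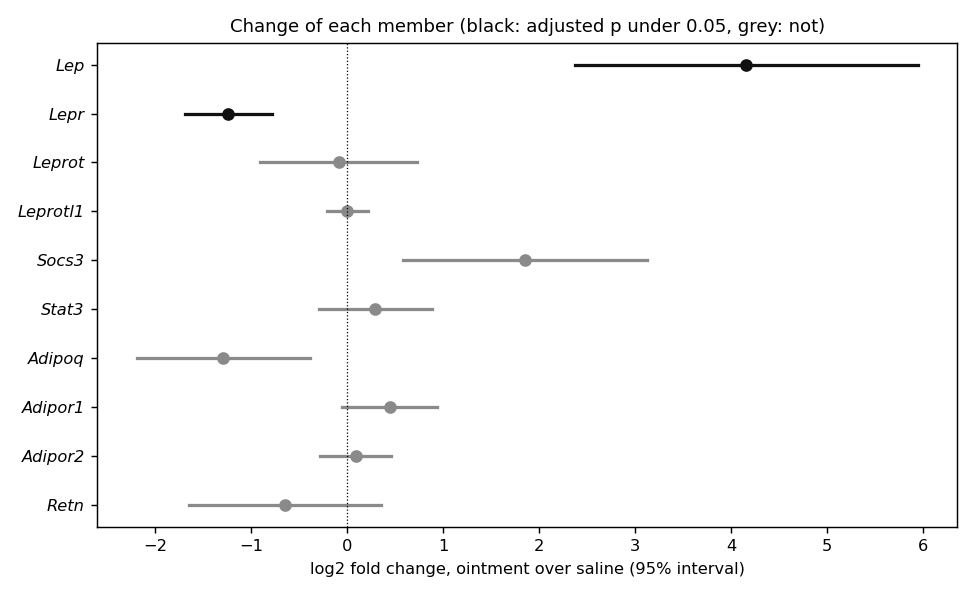
Log2 fold change of each member, ointment over saline, with its 95% interval from the edgeR fit (10 libraries); black marks the members with an adjusted p under 0.05 and grey the others. Lep at 4.16 and Lepr at -1.24 are black, and the intervals of Socs3 and Adipoq also leave out 0 without passing the adjustment.

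Socs3, on chromosome 11 (117966079 to 117970047, minus strand), encodes the feedback inhibitor of the leptin receptor and of the interleukin 6 receptor family. It was 133, 332, 228, 122 and 622 CPM in ointment libraries 1 to 5, against 31.96, 32.7, 80.0, 141 and 112 CPM in saline libraries 1 to 5. The groups overlapped at ointment 1 and 4 and saline 4, and ointment 5 was the highest. The log2 fold change was 1.85 (SE 0.57, 95% interval 0.58 to 3.13), which did not pass (adjusted p = 0.134 by edgeR, 0.0135 by DESeq2). Without ointment 5 it was 1.36 (adjusted p = 0.276 by edgeR).

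Stat3, the transcription factor gene of the same pathway, was 144, 231, 220.2, 135 and 307 CPM in ointment libraries 1 to 5, against 109, 152, 164, 235 and 188 CPM in saline libraries 1 to 5. Its groups overlapped widely and its log2 fold change of 0.29 (SE 0.26) did not pass (adjusted p = 0.653 by edgeR). The gene overlaps Stat5a at its exons on the other strand (chromosome 11), and reads from the overlap cannot be assigned without strand. Socs3 and Stat3 varied together. The Pearson correlation of their log2 CPM was 0.84 over the 10 libraries and 0.93 for deviations from the group means. Both were highest in ointment 5 and lowest in saline 1.

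Neutrophils and macrophages were measured by their markers too. Summed over 12 neutrophil markers, of which 1 rose (Mmp9, a gelatinase gene; by edgeR, adjusted p = 0.0143 at a log2 fold change of 2.14), the level was 2005 to 8644 CPM with ointment and 907 to 2890.2 CPM with saline. All 12 neutrophil markers had positive fold changes (median 2.04 on the log2 scale). The neutrophil sums overlapped between the groups, and ointment 5 was the highest. S100a8 and S100a9 made up most of these sums. Their means were 1444 and 1898 of 4510 CPM with ointment, and 603 and 809 of 1690 CPM with saline. The overlap of the sums therefore describes mainly these genes. Singly, the groups of Mmp9 and Ngp did not overlap, and those of the other neutrophil markers did. Over 10 macrophage markers, of which Adgre1, Cd68 and Trem2 rose (3 genes), the sum was 6748 to 9225 CPM with ointment. With saline it was 2898 to 5489 CPM, without overlap. Lyz2 made up most of the macrophage sum, with means of 4552 of 7741 CPM with ointment and 2255 of 4179 CPM with saline. In saline 3, which had the lowest sum, Lyz2 was 594 CPM. Adgre1, Cd68 and Trem2 also had groups that did not overlap. All 10 macrophage markers had positive fold changes (median 0.81 on the log2 scale). Of the neutrophil markers 2, the granule genes Camp and Ngp, were listed at 0 in saline 1, and no macrophage marker was at 0. Their part in the Socs3 difference was not tested.

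Adipoq, on chromosome 16 (23146536 to 23158028, plus strand), encodes adiponectin. It was 38.9, 39.3, 58.7, 34.6 and 25.1 CPM in ointment libraries 1 to 5, against 46.1, 63.4, 200.4, 60.9 and 111 CPM in saline libraries 1 to 5. Only ointment 3 reached into the saline range. The mean was 39.3 ± 12.2 CPM with ointment and 96.4 ± 63.1 CPM with saline (SD, n = 5 each), and the log2 fold change of -1.29 (SE 0.40, 95% interval -2.20 to -0.39) did not pass (adjusted p = 0.137 by edgeR, 0.0264 by DESeq2). Without saline 3, which held the highest value, it was -0.85 (adjusted p = 0.23 by edgeR).

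Retn, on chromosome 8 (3655770 to 3660110, plus strand), encodes resistin. It was 6.63, 32.7, 10.8, 14.7 and 22.9 CPM in ointment libraries 1 to 5, against 12.4, 21.7, 43.0, 33.9 and 26.4 CPM in saline libraries 1 to 5. The groups overlapped, and the log2 fold change of -0.65 (SE 0.45, 95% interval -1.65 to 0.35) did not pass (adjusted p = 0.532 by edgeR). Ointment 2, the ointment library with the lowest Lep, had the highest Retn of its group.

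The adiponectin receptor genes showed little difference. Adipor1 was 232, 237, 236, 214 and 405 CPM in ointment libraries 1 to 5, against 213, 205, 223, 216 and 119 CPM in saline libraries 1 to 5. The libraries numbered 5 stood apart in both groups, in opposite directions, and the other 8 lay between 205 and 237 CPM. The log2 fold change was 0.44 (SE 0.22, 95% interval -0.06 to 0.94, adjusted p = 0.356 by edgeR), and 0.24 without ointment 5. Adipor2 ran from 75.8 to 129.7 CPM with ointment and from 83.5 to 124 CPM with saline, with a log2 fold change of 0.09 and a 95% interval of -0.28 to 0.46 (adjusted p = 0.864 by edgeR).

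Of 15 adipocyte markers tested, 11 had positive fold changes, 0 passed as higher and 1, Cfd, also an adipokine gene, fell; the median log2 fold change was 0.73, against -0.0025 over all genes tested. Cfd encodes adipsin, a complement protease secreted by fat. It was 20.6, 132, 24.9, 38.4 and 61.5 CPM in ointment libraries 1 to 5, against 236, 299, 734, 323 and 339 CPM in saline libraries 1 to 5, with no overlap (by edgeR, adjusted p = 0.0384 at -2.80 on the log2 scale, SE 0.56). Plin1, the lipid droplet coat protein gene, was 43.2 ± 13.7 CPM with ointment and 18.3 ± 7.40 CPM with saline (SD, n = 5 each; adjusted p = 0.0763 by edgeR). By edgeR, Plin4, of the same family, was at 1.49 on the log2 scale (adjusted p = 0.0806) and Fabp4, the fatty acid binding protein gene, at 1.01 (0.0938).

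**Figure D3:**
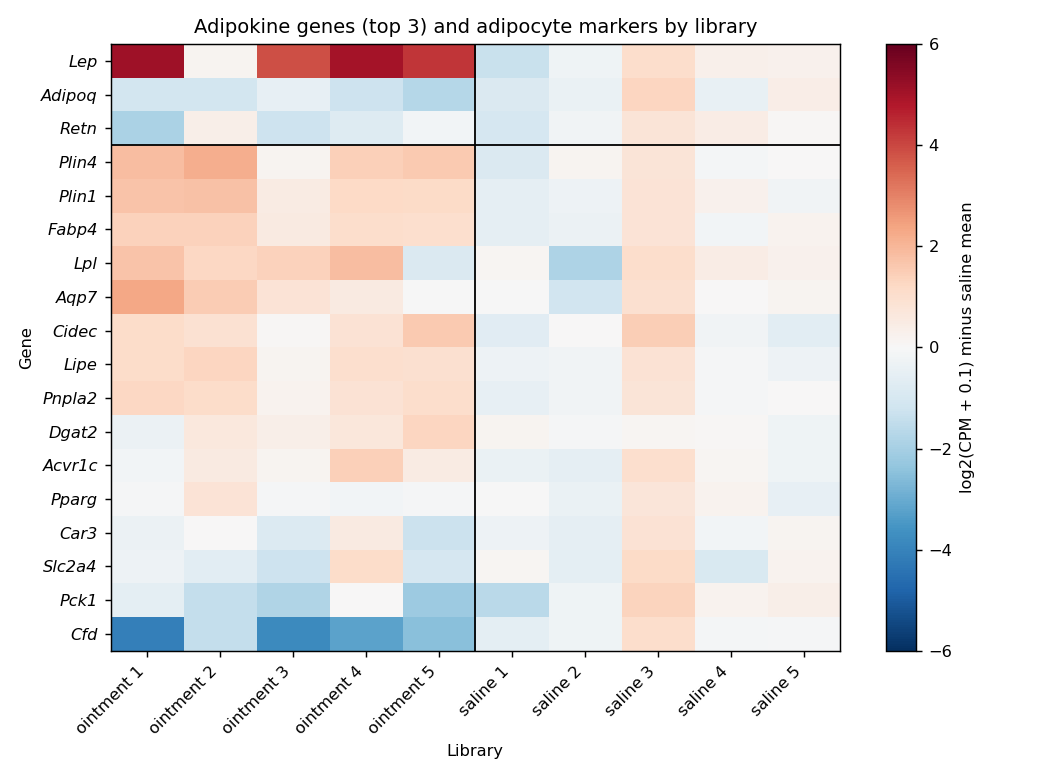
Log2(CPM + 0.1) of Lep, Adipoq and Retn (top rows) and 15 adipocyte markers, each minus its mean over the saline libraries, with ointment libraries left of saline libraries; red is higher and blue lower. Lep and Cfd stand out in opposite directions in ointment 1, 3, 4 and 5, while Plin1, Plin4 and Fabp4 are red in every ointment library.

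The 15 markers summed to 2083 to 3275 CPM with ointment and 1322 to 3400.4 CPM with saline, and none was at 0 in any library. The master regulator gene Cebpa, the 16th on the list, did not pass the filter: it was listed at 0 in 8 of 10 libraries and at 218 and 182 counts in ointment 3 and saline 1. Relative to the sum, Lep was 8.66-fold higher with ointment (difference of mean log2 ratios 3.11, exact two-sided permutation p = 0.0397, adjusted 0.0397 over the 3 ratios tested). It was higher in 4 of 5 ointment libraries than in any saline library, and without saline 2 or saline 4 the adjusted p of the exact permutation test was 0.0556, with differences of 3.17 and 3.20. Adipoq was 3.23-fold lower relative to the markers (difference -1.69, exact permutation p = 0.00794, adjusted 0.0238; 5 against 5 libraries can give none lower), and its groups did not overlap.

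Retn was 2.46-fold lower relative to the markers (difference -1.30, exact permutation p = 0.0238, adjusted 0.0357 over the 3 ratios). In 3 of 5 ointment libraries it was below every saline library, and it was not called without saline 2 or saline 4 (adjusted exact permutation p = 0.0556, differences -1.23 and -1.18). Fabp4 made up 27.7 to 53.1% of the marker sum, and macrophages are known to express Fabp4 and Lpl too. With Fabp4, Lpl and Cfd left out of the sum, a choice made after seeing the data, the differences were 3.28 for Lep, -1.52 for Adipoq and -1.13 for Retn (adjusted exact permutation p = 0.0397, 0.0357 and 0.0357). With Plin1, Cidec and Fabp4 alone as the sum they were 2.61, -2.20 and -1.80 (adjusted exact permutation p = 0.0476, 0.0119 and 0.0119). That sum was mostly Fabp4, so it shares the limit named above. Over the libraries Fabp4 was 392 to 1506 CPM, Plin1 11.8 to 57.5 CPM and Cidec 23.5 to 113.9 CPM.

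**Figure D4:**
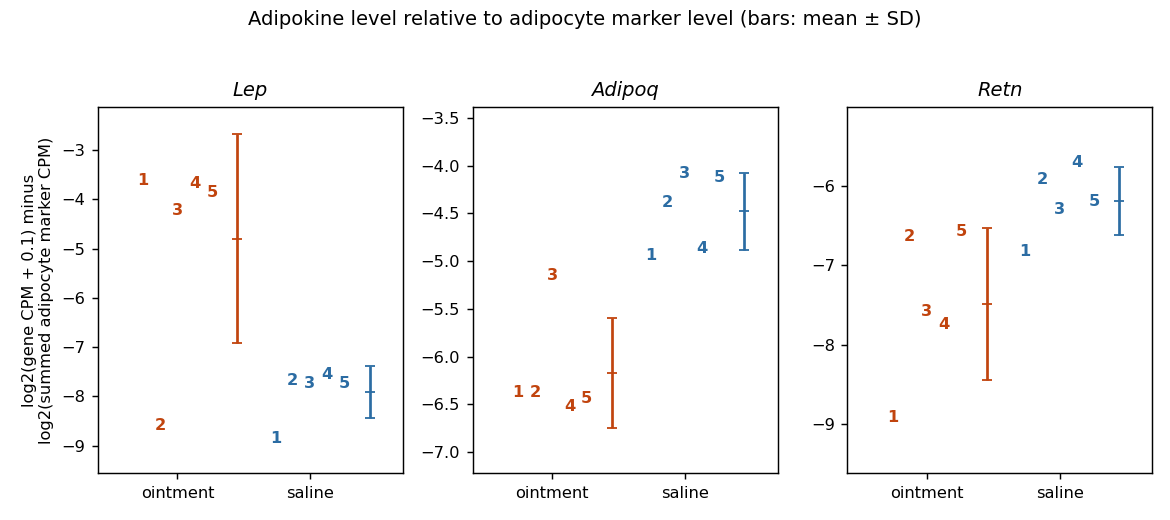
Log2 ratio of Lep, Adipoq and Retn CPM (plus 0.1) to the summed CPM of 15 adipocyte markers in each library, with digits for replicate numbers and bars for mean ± SD (n = 5 per group); ointment is on the left of each panel. Lep lies between -4.22 and -3.63 in 4 ointment libraries and at -8.58 in ointment 2, and Adipoq in every ointment library lies below every saline library.

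Per kilobase of annotated exon, the order of the members' levels differed most for Lep. With ointment, Socs3 was first at 99.4 ± 71.0 CPM per kb, followed by Leprot at 87.9 ± 38.4, Adipor1 at 52.7 ± 15.8 and Lep at 46.4 ± 31.0 CPM per kb (SD, n = 5). Lepr was last at 1.29 ± 0.34 CPM per kb, and it was the single member whose range did not overlap that of the next in the order, Retn at 11.1 ± 6.58 CPM per kb. With saline, Leprot was first at 93.4 ± 2.53 CPM per kb and Adipoq second at 69.8 ± 45.7, while Lepr at 3.05 ± 0.49 and Lep at 2.60 ± 1.414 CPM per kb were last and overlapped. The other neighbours in the saline order overlapped too, except Adipor2 (16.5 ± 2.82 CPM per kb) and Lepr.

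Around the leptin receptor, none of 18 JAK-STAT signalling genes passed the test, with a median log2 fold change of 0.15 against -0.0025 over all genes. The smallest p was that of Grb2, an adaptor gene, at 122 ± 14.1 CPM with ointment and 86.8 ± 8.17 CPM with saline (SD, n = 5 each; adjusted p = 0.0578 by edgeR). On the log2 scale Irs2, an insulin receptor substrate gene, was at 0.65 (adjusted p = 0.181 by edgeR) and Sh2b1, an adaptor gene, at -0.26 (0.263).

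Of 17 genes for other ligands and receptors that act through STAT3, 1 fell and 16 did not pass (median log2 fold change 0.44). Cntfr, the ciliary neurotrophic factor receptor gene, fell to 4.32 ± 0.38 CPM with ointment, against 8.43 ± 1.91 CPM with saline (SD, n = 5 each; by edgeR, adjusted p = 0.0343 at -0.96 on the log2 scale). Il6, the inflammatory cytokine gene, was 8.03, 22.9, 20.1, 4.25 and 97.3 CPM in ointment libraries 1 to 5, against 0.599, 6.99, 0.9753, 3.31 and 3.67 CPM in saline libraries 1 to 5. Its log2 fold change of 3.29 did not pass (adjusted p = 0.116 by edgeR), and like Socs3 it was highest in ointment 5 and lowest in saline 1. Csf3r, the neutrophil growth factor receptor gene, was at 1.63 (adjusted p = 0.189) and Il10 at 0.91 (0.192).

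None of 15 STAT3 target genes passed, 13 had positive fold changes and their median was 0.81. Lrg1, a secreted glycoprotein gene, had the smallest p (by edgeR, adjusted p = 0.0958 at 4.44 on the log2 scale); it was 139, 310 and 332 CPM in ointment 1, 2 and 5, but 9.68 and 5.82 CPM in ointment 3 and 4, against 1.90 to 19.8 CPM with saline. Mcl1, a survival gene, was at 1.06 (adjusted p = 0.172), the kinase gene Pim1 at 1.15 (0.297) and Hif1a at 0.60 (0.311). In this list Cebpb, Cebpd and Junb were listed at 0 in at least 1 library. Cebpb was at 0 in ointment 3 and 5 and in saline 3, 4 and 5, and at 31.3 to 97.4 CPM elsewhere. Its log2 fold change of 1.42, among the 13 positive ones, rests on those zeros.

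None of 15 adiponectin binding and signalling genes passed, and their median log2 fold change was 0.0083. The AMP kinase subunit gene Prkaa1 was at 0.33 (adjusted p = 0.175 by edgeR), Cdh13, which encodes the adiponectin-binding protein T-cadherin, at -0.79 (0.191), the adaptor gene Appl1 at 0.42 (0.337) and Paqr3 at -0.39 (0.421). Cdh13 was 49.8 ± 20.3 CPM with ointment and 86.2 ± 3.99 CPM with saline (SD, n = 5 each), and its groups did not overlap.

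Of the resistin-like and proposed resistin receptor genes, 6 were tested and 0 passed (median log2 fold change 0.10), and Retnlb was too low to test. Retnlg, which neutrophils express and which is also on the neutrophil list, was at 2.87 (adjusted p = 0.17 by edgeR), and Retnla, a product of alternatively activated macrophages, at -1.34 (0.207). Ror1 was at -0.47 (0.235) and Dcn, the decorin gene, at -0.22 (0.284). Of 15 other adipokine genes tested, 2 fell and 13 did not pass (median 0.13). These were Cfd and C1qtnf12, a member of the adiponectin-related C1q family, which was 20.2 ± 3.16 CPM with ointment and 34.8 ± 4.04 CPM with saline (SD, n = 5 each; by edgeR, adjusted p = 0.0258 at -0.79 on the log2 scale). C1qtnf9 was at -1.04 (adjusted p = 0.0834) and C1qtnf1 at -0.73 (0.256).

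Among 15 SOCS and STAT family genes, which include Socs3 and Stat3, 0 passed and the median was 0.013. On the log2 scale Stat5b was at 0.22 (adjusted p = 0.337 by edgeR) and Stat5a at 0.19 (0.596). Socs3 had the highest log2 fold change of this family.

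**Figure D5:**
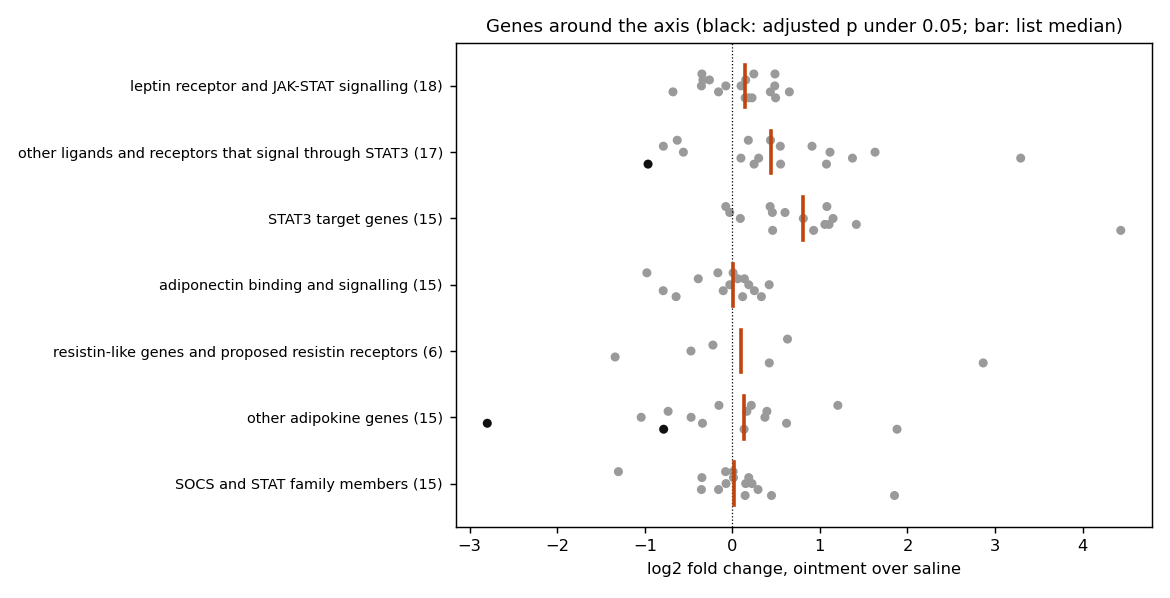
Log2 fold change, ointment over saline, of each tested gene in 7 lists around the axis (one dot per gene, number tested in brackets); black dots have an adjusted p under 0.05, orange bars are list medians and the dotted line is the median of all genes tested. The black dots are Cntfr at -0.96, Cfd at -2.80 and C1qtnf12 at -0.79.

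The genes most alike to each member were taken by the Pearson correlation of log2 CPM over the 10 libraries, a description in which the points share library depth and group. For Lep these were Pon3 (0.933), Akr1a1 (0.922) and Paqr9 (0.921). Within groups, by deviations from group means, they were instead Mmd (0.959), Mrm2 (0.957) and Gprc5b (0.953). For Lepr they were Kyat1 (0.984), Hsbp1l1 (0.977) and Cd207 (0.974), the last of which encodes langerin of Langerhans cells, and Hsbp1l1 led within groups too (0.971).

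For Adipoq the most alike genes were Ggt5 (0.92), Bcat2 (0.916) and Gstm5 (0.907), for Retn Psph (0.967), Amd1 (0.922) and S100a14 (0.922), and for Adipor2 Scd1 (0.912), Adig (0.907) and Hsdl1 (0.9). Scd1 encodes a fatty acid desaturase and Adig adipogenin of fat cells. For Socs3 they were Il17ra (0.958), Gm16096 (0.957) and Dynlt1c (0.957), for Stat3 Exosc8 (0.962), Sap18 (0.956) and Pcgf5 (0.948), and for Adipor1 Dedd2 (0.978), Mxd1 (0.949) and Zfp292 (0.947). Leprot was most like Tigd2 (0.996), Snhg18 (0.989) and Gm20735 (0.988). As Leprot was at 37.6 CPM in ointment 1 and 172.9 to 210 CPM in the other 9 libraries, these values depend largely on ointment 1. Their likeness without that library was not tested. Leprotl1 had the weakest best match, Lypd3 (0.873).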

How the data were processed

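RNA of ulcer tissue of db/db mice (10 libraries, 5 from ulcers given saline with ointment and 5 given saline alone) had been sequenced after a SMARTer mRNA library kit, per the labels' protocols. Per the submitters' processing notes, the genome was GRCm38 (mm10). Aligner, counter and annotation: not given in the sources used here. Whole, unnormalized estimated counts for each gene are what the authors deposited; among low values 4, 8 and 12 occurred 9202, 4812 and 3028 times, more often than the numbers next to them, so they were not taken as reads. The kit is not stated to keep strand. Each column was matched to a sample by its label, and 0 columns were left unmatched.

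Groups were compared over all genes with edgeR 4.0.16 (R 4.3.3), by the robust quasi-likelihood F-test with TMM, filterByExpr (minimum count 10, total 15) and group as the only term, adjusted by Benjamini-Hochberg with a threshold of 0.05. The standard error is the log2 fold change divided by the root of F. Alternatives were DESeq2 1.42.0, RLE and upper-quartile scaling, no filter, counts divided by 4, a replicate block, each library left out, another pseudocount and other adipocyte marker sums. Ratios were compared by exact two-sided permutation. The procedure was tested on simulated counts, which were not built to hold the excess multiples of 4 or the zeros in high genes. Positions and exon lengths came from GENCODE release M21, promoters from RefSeq.

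The members, lists and tests were chosen with earlier results of these data known. Named genes were the members, list genes past the threshold, up to 4 per list with the smallest p, and up to 3 genes most correlated with a member; a gene that this rule would name is not reported here. Junb, Dsp, Krt1, Krt14, Krt71, Lef1, Tchh, Pecam1, Adgre1, Cd68, Trem2, Lyz2, Krt79, Mmp9, S100a8, S100a9, Camp, Ngp, Cebpa, Cebpb and Cebpd were named after their values were seen. Same-numbered libraries did not deviate together, as given under the dependence on processing.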

Additional observations from a re-analysis of the deposited data

Results flagged for a closer look

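Among the 20 groups of 5 libraries (10 members, ointment and saline), 3 held a library that stood apart from the other 4 by Dixon's ratio, where chance gives about 1 in 20. Leprot was 37.6 CPM in ointment 1, while the other 4 ointment libraries held 184 to 210 CPM. Adipor1 was 405 CPM in ointment 5, with 214 to 237 CPM in the remaining 4. Adipor1 was 119 CPM in saline 5, with 205 to 223 CPM in the remaining 4. The causes of these values were not tested.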

How the results depend on the processing

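Of 218 alternative values, 176 kept their direction and side of the threshold (or a count within 1.5 times), 20 lost a call, 2 gained one, 10 changed sign and 10 were counts that moved. Calls over all genes numbered 310 (128 higher, 182 lower), 1682 with DESeq2 (873 higher, 809 lower) and 0 by edgeR with the replicate block (2602 at an unadjusted p under 0.05), and 102 (without ointment 3) to 422 (without ointment 4) with a library left out. The 2 gained calls were by DESeq2, Socs3 (1.87, adjusted p = 0.0135) and Adipoq (-1.28, 0.0264). Without the low-count filter Lep was not called (4.16, adjusted p = 0.0632 by edgeR), and Leprotl1 turned to -0.0019; with upper-quartile scaling it turned to -0.029.

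The replicate block gave 3.77 for Lep (adjusted p = 0.224 by edgeR) and -1.26 for Lepr (0.18). With sign flips within replicate numbers, where 32 assignments allow no p below 0.0625, the ratios to adipocyte markers stayed at 3.11, -1.69 and -1.30 for Lep, Adipoq and Retn (adjusted exact p = 0.125, 0.0938 and 0.0938). Same-numbered libraries correlated at -0.077 to 0.056 in their deviations, and different-numbered ones at -0.129 to 0.124. Of the 5 ointment libraries, 1 correlated best with its own number. These correlations cannot settle whether the libraries were paired, which the labels do not state.

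With each library left out, the log2 fold change was 3.89 to 4.48 for Lep (called in 2 of 10 fits) and -1.36 to -1.12 for Lepr (8 of 10). It was -0.18 to 0.17 for Leprot, -0.043 to 0.055 for Leprotl1 and -0.0021 to 0.18 for Adipor2, which changed sign, and 1.36 to 2.15 for Socs3, 0.11 to 0.43 for Stat3, -1.48 to -0.85 for Adipoq, 0.24 to 0.52 for Adipor1 and -0.999 to -0.44 for Retn, none of them called. The ratios were 2.82 to 4.06 for Lep, -1.95 to -1.60 for Adipoq and -1.53 to -0.94 for Retn, called in 8, 10 and 8 fits. The cause of each change was not tested; fits with a library left out have fewer samples.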
